A study of Mus musculus with 16 samples.

Results

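The comparison described here set YBX1-/- leukaemia cells against wild-type (WT) leukaemia cells at the start of a chase, when the RNA still carried most of the label taken up over 24 h. It covers 6027 of 21177 genes, those whose most abundant interval (1 for each gene) had a mean abundance over libraries of at least 5 CPM (reads scaled to library size), and 6 of the 16 libraries, namely WT and YBX1-/- at 0, 0.5 and 1 h of chase, paired by time. The cells came from bone marrow of C57BL/6 mice. They were grown for 24 h with 50 µM 4-thiouridine (4sU), washed, and placed in medium with 10 mM uridine. Polyadenylated RNA was sequenced from 1 library for each genotype and time. The labels used here do not give the leukaemia driver, the age of the mice or how the deletion was made, nor do they say whether libraries came from separate cultures or animals, so that p-values measure only the spread between these libraries. The measured quantity is the T-to-C rate of an interval, which rises with the amount of label in its RNA and is given below in percent. Whether it is a share of reads or of T positions is not stated in these sources, so rates are compared between libraries and not read as a share of molecules.

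In this assay, known as SLAM-seq, cells build 4sU into new RNA in place of uridine, and alkylation before reverse transcription makes the labelled positions read as C where the genome has T. After a long labelling a transcript that turns over quickly is expected to be nearly all new, while a transcript that is made slowly or kept for long still holds molecules from before the label. YBX1 is a cold-shock domain protein that binds mRNA throughout the cell, can recognise modified bases, and is known as a factor that protects bound transcripts from decay. In myeloid cells the mRNAs of granule proteins are among the most abundant and the most stable, and they are made in waves as a cell matures.

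The intervals lie at the ends of genes. Of the 6027 intervals, 6006 (99.7%) lay within the 3′ UTR of their gene in the GENCODE annotation of GRCm38, 7 lay in an exon of a noncoding transcript, 3 overlapped coding sequence and 11 could not be placed in 1 exon. For 6016 intervals the sequence was read from the reference transcripts, and the number of T positions equalled the deposited one in all 6016. The following windows are the 30 bases richest in T of each interval, from genes on which the results turn. S100a8, S100a9 and Ngp stood higher in YBX1-/- cells, and Eif4a2 and Atl3 stood lower. Capitals mark the T positions at which a conversion can be read, and the sequences are from GRCm38, 5′ to 3′ on the strand of the gene.
S100a8, chr3:90669999-90670028, plus strand: aTaTgTcTacagaaTaaagTcaTcaTaTcT
S100a9, chr3:90692674-90692703, minus strand: gggaaTggcTTacTcaaTggccTTTgTTcT
Ngp, chr9:110422558-110422587, plus strand: aTccaTaccTTTgTccaTTTgcTTccTTcT
Eif4a2, chr16:23113550-23113579, plus strand: TcTTTTTTTcTTagaaaTTcaTTTacTagT
Atl3, chr19:7539597-7539626, plus strand: aTTacTTTTTTTTTTTTTTTTaTTacaTTT
The S100a8 window holds 10 T positions, the S100a9 window 11, the Ngp window 14, the Eif4a2 window 17 and the Atl3 window 23. The intervals were 68, 114, 603, 970 and 5638 bases long, in the same order. A longer interval offers more windows to choose from, so these counts are not compared between genes. Over the whole interval, T made up 27.9% of the bases for S100a8 (chr3:90669968-90670035, 19 T positions), 28.1% for S100a9 (chr3:90692632-90692745) and 26.4% for Ngp (chr9:110422410-110423012). It made up 33.0% for Eif4a2 and 33.2% for Atl3. The share of T in an interval went with the level of the rate in both genotypes, as is described further on.

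Most transcripts of YBX1-/- cells carried less label than the same transcripts of WT cells. At 0, 0.5 and 1 h the 6027 genes had median rates of 42.7%, 49.2% and 43.5% in WT cells, and of 33.3%, 36.6% and 29.6% in YBX1-/- cells. All 3 YBX1-/- medians lay below all 3 WT medians, by 9.40 points at 0 h, 12.6 points at 0.5 h and 13.9 points at 1 h. On the log2 scale the differences of medians, YBX1-/- minus WT, were -0.36, -0.43 and -0.55, with a mean of -0.44 ± 0.0988 (SD, n = 3 pairs). A 2-sided exact permutation test within the pairs gave p = 0.25, which is the smallest value that 8 exchanges allow, and over the 20 unpaired assignments it gave p = 0.1, again the smallest possible. The rate was lower in YBX1-/- for 4688 genes (77.8%) at 0 h, 5296 (87.9%) at 0.5 h and 5395 (89.5%) at 1 h.

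**Figure D1:**
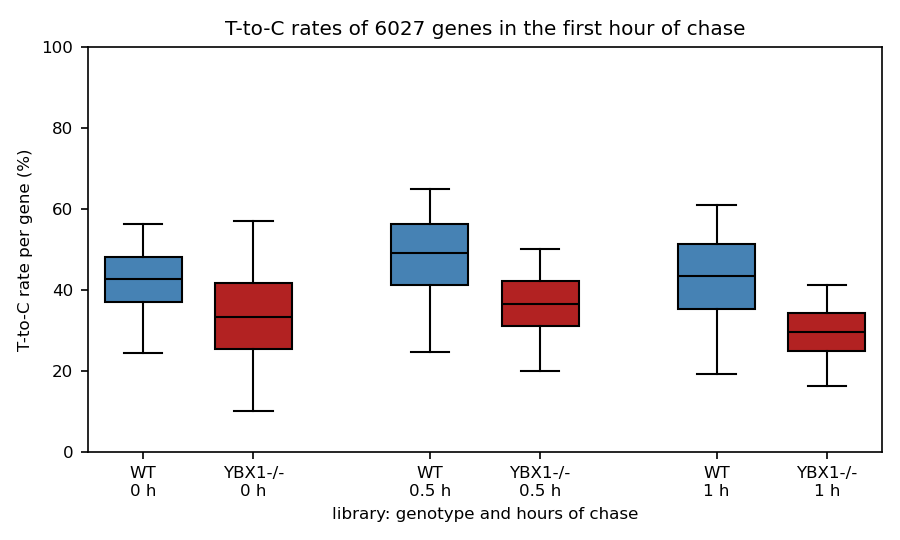
T-to-C rate per gene (vertical axis, percent) of the 6027 genes in the 6 libraries, ordered by hours of chase. Boxes run from the 25th to the 75th percentile, the line is the median and whiskers reach from the 5th to the 95th percentile. The 3 YBX1-/- medians, 33.3%, 36.6% and 29.6%, lie below the WT medians of 42.7%, 49.2% and 43.5%, and the YBX1-/- box at 0 h is wider than those at 0.5 and 1 h.

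The YBX1-/- library at 0 h stood apart from the other 5. It listed 151 genes (2.51%) at a rate of 0, against 16 (0.265%) for WT at 0 h, and it held 1513 different rates over the 6027 genes where the others held 3852 to 4663. A total of 224 genes sat at exactly 33.3% there, and the SD of its log2 rates across genes was 1.47, against 0.747 to 0.952 in the others. The per-gene differences of the 0 h pair accordingly spread most, with an SD of 1.22 on the log2 scale against 0.578 at 0.5 h and 0.685 at 1 h. As a description across 6027 genes, which are not independent, the per-gene differences of the pairs correlated with r = 0.088 between 0 and 0.5 h, 0.041 between 0 and 1 h and 0.156 between 0.5 and 1 h. Results are therefore also given without that library or, where pairs are counted, without the 0 h pair.

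No single gene passed the test for a difference from the library median. Log2 rates (with 0.1 percentage points added) were centred on the median of their library, so that a value of 0 means that a gene shared the general difference, and were tested with limma with the time point as a factor. Of the 6027 genes, 0 (0%) had an adjusted p under 0.05, the smallest adjusted p was 0.626, and 295 genes stood higher and 144 lower at an unadjusted p under 0.05. The residual degrees of freedom were 2. Without centring, the shift of all genes was -0.45 in the median, no gene passed either, and the smallest adjusted p was 0.0693. Genes named below as higher or lower are therefore described by their values in each library, and none passed the adjusted test.

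The groups of 3 libraries did not overlap in a large share of genes. All 3 YBX1-/- rates lay below all 3 WT rates for 2885 genes (47.9%). The opposite, all 3 YBX1-/- rates above all 3 WT rates, held for 32 genes (0.531%), of which 27 had a rate above 0 in all 6 libraries. Without the YBX1-/- library at 0 h the counts were 3575 and 43. Leaving out a library can only raise these counts, so the 43 include the 32 by construction and do not test them. When 1 pair at a time was left out, the lower count was between 3626 and 4137, and the higher count was between 81 (without 0.5 h) and 164 (without 1 h), since fewer values have to be separated.

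**Figure D2:**
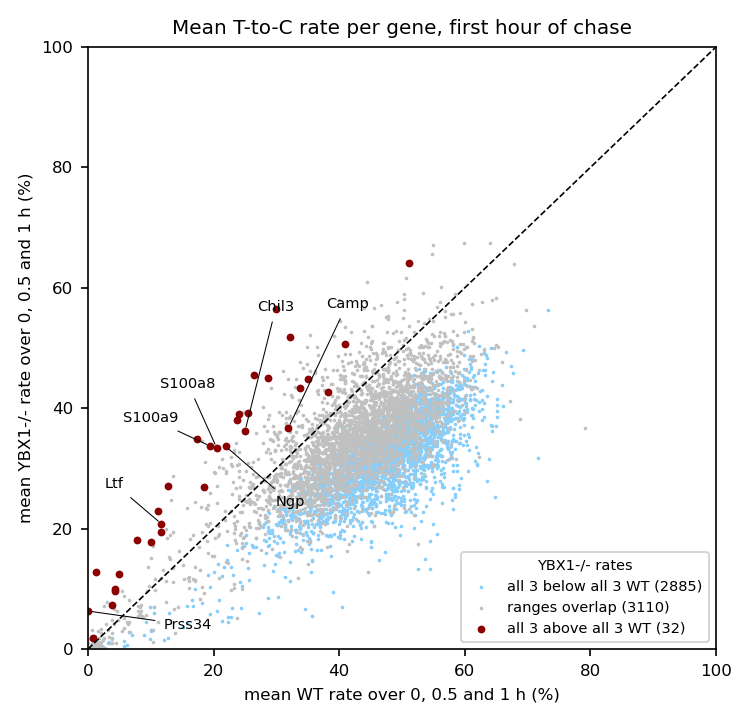
Mean rate over 0, 0.5 and 1 h of each gene in WT (horizontal axis, percent) and YBX1-/- (vertical axis, percent); the dashed line marks equal rates. Most of the 6027 genes lie under the line; the 32 genes whose 3 YBX1-/- rates exceed all 3 WT rates are drawn in dark red, and S100a8, S100a9, Ngp and Chil3 sit among them at WT means near 20% to 25%.

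The most abundant of these 32 genes were neutrophil genes. In order of abundance they began with Ngp (1013 CPM), Chil3 (836 CPM), S100a8 (783 CPM), S100a9 (584 CPM) and Camp (51.3 CPM). The granule and neutrophil maturation list, with 37 of its 41 genes measured, supplied 7 of the 32: these 5, Ltf and Prss57.

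S100a8 and S100a9 encode the paired subunits of calprotectin, a calcium- and zinc-binding complex that fills the cytosol of neutrophils. S100a9 had rates of 18.8%, 19.9% and 19.9% in WT at 0, 0.5 and 1 h and of 33.6%, 36.3% and 31.1% in YBX1-/-. S100a8 had rates of 20.3%, 20.6% and 20.7% in WT and of 36.2%, 33.8% and 30.1% in YBX1-/-. Both genes were therefore nearly constant among the WT libraries and far above them in every YBX1-/- library, while the library medians moved the other way. The mean rate was 1.73 times that of WT for S100a9 and 1.63 times for S100a8. Relative to the library median the log2 differences were 1.23 (SE 0.223, limma adjusted p = 0.626) and 1.14 (SE 0.215, adjusted p = 0.626).

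Ngp encodes neutrophilic granule protein, a cystatin-like component of secondary granules. Its rates were 21.7%, 22.7% and 21.3% in WT and 34.6%, 36.1% and 30.4% in YBX1-/-, without overlap. Chil3 (chr3:106147554-106147852) encodes a chitinase-like lectin secreted by maturing neutrophils and macrophages. Its rates were 21.2%, 26.8% and 27.0% in WT and 40.6%, 37.3% and 30.7% in YBX1-/-, also without overlap. Camp (chr9:109847379-109847434) encodes the cathelicidin precursor stored in secondary granules, and its rates were 30.9%, 30.9% and 33.9% against 37.4%, 38.1% and 34.6%. The gap between the closest libraries was narrow for Camp, 33.9% against 34.6%, and wide for Ngp. The relative log2 differences were 1.06 (SE 0.204) for Ngp, 0.98 (SE 0.204) for Chil3 and 0.65 (SE 0.143) for Camp, each with a limma adjusted p of 0.626.

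Another 3 members of the list also stood higher at each of the 3 times. Ltf, encoding the iron-binding granule protein lactoferrin, had rates of 10.4%, 15.8% and 8.78% in WT and 23.3%, 19.5% and 19.5% in YBX1-/-. Prss57, encoding a granule serine protease, had 11.0%, 28.2% and 31.9% in WT and 40.0%, 41.0% and 33.0% in YBX1-/-. Lcn2, encoding the siderophore-binding protein lipocalin 2, had 31.6%, 18.6% and 19.3% in WT and 34.8%, 29.5% and 34.2% in YBX1-/-, and was higher at each time although its WT value at 0 h overlapped the YBX1-/- range. Chil1 and Itgb2l, outside the list and named here after their values were seen, also stood entirely higher, with means 2.13 and 1.47 times those of WT.

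Other genes of the list took the general direction. Among the granule serine proteases other than Prss57, Elane, encoding neutrophil elastase, had 22.1%, 24.1% and 20.1% in WT and 19.8%, 17.4% and 14.7% in YBX1-/-. Prtn3, encoding proteinase 3, had 29.8%, 32.9% and 30.6% in WT and 18.8%, 24.9% and 20.2% in YBX1-/-. Ctsg, encoding cathepsin G, had 43.7%, 47.4% and 45.1% in WT and 33.7%, 30.5% and 28.3% in YBX1-/-. In all 3 of these protease genes the YBX1-/- range lay under the WT range. The same held for Mmp8 (199 CPM), another gene of the list. Lyz2, encoding lysozyme and at 7376 CPM the most abundant member of the list, had 46.0%, 49.2% and 51.2% in WT and 33.1%, 38.6% and 31.1% in YBX1-/-, again without overlap. Slpi, encoding a secreted protease inhibitor, stood lower still, at 43.8%, 49.4% and 47.2% in WT and 25.6%, 29.6% and 25.7% in YBX1-/-. Stfa1, a stefin, had 34.1%, 34.4% and 35.8% in WT and lay between 15.5% at 0 h and 21.3% at 0.5 h in YBX1-/-. Its log2 difference relative to the library median was -0.44. Those of Stfa3 and Stfa2 were -3.05 and -1.9, the largest of the list in either direction. Stfa3 lay entirely below WT, and the ranges of Stfa2 overlapped. The stefin genes are near-identical copies whose reads could be split between them.

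**Figure D3:**
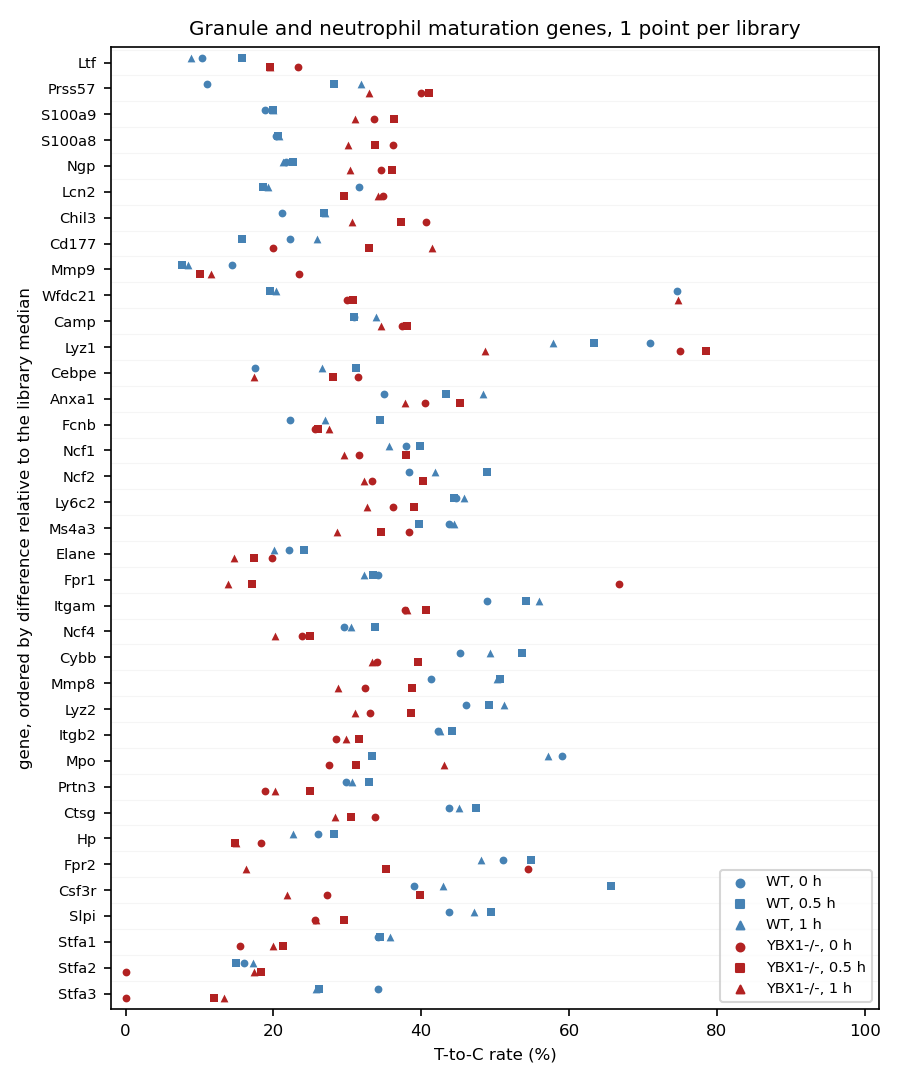
T-to-C rate (horizontal axis, percent) of the 37 measured granule and neutrophil maturation genes, 1 point for each library, blue for WT and red for YBX1-/-, with marker shapes for 0, 0.5 and 1 h. Genes are ordered by their difference relative to the library median; S100a8, S100a9, Ngp and Chil3 near the top have all red points to the right of all blue points, and Stfa1 and Slpi near the bottom have them to the left.

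Counted as a whole, the granule list was split. Of its 37 measured genes, 15 had all YBX1-/- rates below all WT rates (40.5%, against 47.9% of all genes) and 7 had them above (against 0.531% of all genes). The list had a median of 61.3 CPM, and in the most abundant of 5 equal groups of genes 75.2% lay entirely below. Without the YBX1-/- library at 0 h the lower and higher counts, which can only rise, were 17 and 9, beside 59.3% and 0.713% of all genes. Without the whole 0 h pair the higher count was 12, beside 1.71% of all genes. Relative to the library median, 16 genes (43.2%) were higher in all 3 pairs and 7 (18.9%) lower, where 1019 (16.9%) and 965 (16%) of all genes were. These counts were 19 (51.4%) and 10 (27.0%) without the whole 0 h pair, beside 28.9% and 29.0% of all genes. The list had medians of 34.2%, 33.5% and 32.3% in WT and 32.4%, 32.9% and 29.5% in YBX1-/-. In the bulk RNA a change in every cell and a change in the share of cells at a given stage of maturation cannot be told apart, and the abundance deposited is a mean over libraries that does not show which genotype held more of these transcripts.

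In YBX1-/- cells most of the 7 entirely higher granule genes ranked at or above the middle of genes of like T share. They were chosen for higher rates where most genes had lower ones, so a rise in rank follows from the choice. Genes were ranked within 5 equal groups by T share. In its group, the mean WT rate of S100a8 was at percentile 3.82 and its mean YBX1-/- rate at percentile 62.9. S100a9 moved from percentile 3.49 to 64.6, Ngp from 4.07 to 65.0, Chil3 from 2.16 to 52.7 and Camp from 6.39 to 70.1. Prss57 moved from 5.06 to 84.8, but Ltf only from 5.64 to 17.5. Of the 32 entirely higher genes, those outside the list rose too, Gpd2 from 10.0 to 86.5 and Ccna2 only from 0.332 to 0.995. Elane stayed at the bottom in both genotypes, at percentile 3.40 in WT and 3.57 in YBX1-/-. In WT cells the transcripts of S100a8, S100a9, Ngp and Chil3 were thus among the least labelled, and in YBX1-/- cells their rates were near the middle.

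S100a8, S100a9, Ngp and Chil3 also kept more of their label later in the chase than most genes did. At 3 h S100a8 stood at 16.4% in WT cells against 31.3% in YBX1-/- cells, and at 6 h at 15.4% against 25.0%. Its 6 h rate was 75.1% of the early mean in WT and 74.8% in YBX1-/-. For S100a9 the remaining share at 6 h was 72.8% and 66.1%, for Ngp 69.1% and 62.4%, and for Chil3 86.5% and 85.1%. It was 58.3% and 56.0% for Camp, 36.1% and 50.1% for Ltf, and 26.9% and 20.1% for Prss57. Over all 6027 genes the median remaining share was 22.8% in WT and 14.4% in YBX1-/-. S100a8, S100a9, Ngp and Chil3 thus kept far more of their label than the median gene in both genotypes, while Prss57 stood closer to it.

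C/EBP transcription factors are known regulators of neutrophil granule genes, so the promoters of the 5 most abundant higher genes were searched for such a sequence. The 2 promoters that held a match, those of Ngp and S100a9, are shown. The sequences are from RefSeq for GRCm38.p6, from 250 bases before to 50 bases after the start, and capitals mark matches to TTGCNNAA or to the same motif read on the other strand, TTNNGCAA, a C/EBP-type sequence.
Ngp promoter, chr9:110419558-110419857, plus strand: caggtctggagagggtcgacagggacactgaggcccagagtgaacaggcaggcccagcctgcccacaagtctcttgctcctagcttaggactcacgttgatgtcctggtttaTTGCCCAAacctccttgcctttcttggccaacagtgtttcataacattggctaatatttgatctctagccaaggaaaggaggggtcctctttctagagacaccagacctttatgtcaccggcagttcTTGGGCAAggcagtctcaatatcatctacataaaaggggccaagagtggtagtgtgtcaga
S100a9 promoter, chr3:90695672-90695971, minus strand: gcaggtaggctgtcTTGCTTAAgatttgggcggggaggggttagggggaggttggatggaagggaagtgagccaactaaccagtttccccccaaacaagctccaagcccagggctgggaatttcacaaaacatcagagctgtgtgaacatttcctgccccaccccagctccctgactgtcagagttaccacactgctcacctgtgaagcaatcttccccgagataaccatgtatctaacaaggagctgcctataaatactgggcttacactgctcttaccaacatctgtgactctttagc
The Ngp promoter held 2 matches and the S100a9 promoter 1, while those of S100a8, Chil3 and Camp held none of these letters in that window. Of 32851 RefSeq promoters of the same length, 10.8% held at least 1 match. A match describes the sequence and does not show a bound site.

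The 32 higher genes also included Ccna2, Tk1 and Prss34, named here after their values were seen, and the lists that hold them had at least as many genes entirely below WT. Of 34 measured S-phase genes 17 (50.0%) were entirely below WT and 2 above (Tk1 and Chaf1a). Of 36 G2 and mitosis genes 10 (27.8%) were below and 1 above (Ccna2). Of 7 mast cell, basophil and eosinophil markers 1 (14.3%) was below (Ms4a2) and 1 above (Prss34). Over all genes 47.9% were below and 0.531% above. The S-phase share below was near that of all genes, and the shares of the other lists were under it. Ccna2, encoding cyclin A2, had rates of 9.09%, 15.7% and 5.31% in WT and 18.1%, 19.4% and 15.8% in YBX1-/-. Tk1, encoding the S-phase enzyme thymidine kinase, had 29.0%, 0% and 23.1% in WT and 36.0%, 38.1% and 30.7% in YBX1-/-. Prss34, encoding a mast cell and basophil protease, was listed at 0% in all 3 WT libraries and at 8.82%, 5.65% and 4.50% in YBX1-/-. A listed 0 can mean no converted read or no read at all, so no fold was computed for Prss34. For Ccna2 and Tk1 the lowest YBX1-/- value and the highest WT value lay close together, 15.8% beside 15.7% and 30.7% beside 29.0%.

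The lists of cell division genes, p53 targets and monocyte genes stood above the library median, while their median rates stayed below those of WT. In the G2 and mitosis list (36 of 61 genes measured) the medians were 43.0%, 49.7% and 39.8% in WT and 40.2%, 41.7% and 34.3% in YBX1-/-. Its median log2 difference was 0.25 relative to the library median and flipped to -0.20 without centring. Of the 36 genes, 16 (44.4%) were relatively higher in all 3 pairs and 1 (2.78%) lower, beside 16.9% and 16% of all genes. The counts were 22 (61.1%) and 3 (8.33%) without the 0 h pair, where 28.9% of all genes were then higher and 29.0% lower. Cdca8, encoding a subunit of the chromosomal passenger complex, had 37.5%, 25.9% and 26.1% in WT and 34.6%, 38.1% and 34.3% in YBX1-/-. Nusap1, encoding a spindle microtubule protein, had 25.8%, 36.4% and 25.0% in WT and 42.4%, 51.6% and 35.9% in YBX1-/-. In both genes the ranges overlapped.

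The p53 targets (18 of 28 measured) had a relative median of 0.19, which was -0.26 without centring. A total of 8 (44.4%) were relatively higher in all 3 pairs and 1 (5.56%) lower, beside 16.9% and 16% of all genes. With the 0 h pair left out the higher count was again 8 (44.4%) and the lower 2 (11.1%). The shares of all genes were then larger, 28.9% and 29.0%. Cdkn1a, encoding the cell cycle inhibitor p21, had 42.8%, 45.9% and 42.5% in WT and 42.1%, 43.3% and 35.3% in YBX1-/-. Phlda3, encoding an inhibitor of AKT signalling, had 46.6%, 35.0% and 39.5% in WT and 50.0%, 52.2% and 33.7% in YBX1-/-. Both genes overlapped between the genotypes.

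Among monocyte and macrophage markers (22 of 31 measured), 12 (54.5%) were relatively higher in all 3 pairs and 3 (13.6%) lower, beside 16.9% and 16% of all genes, and the relative median was 0.17 (-0.27 without centring). Leaving out the 0 h pair gave 15 (68.2%) and 4 (18.2%), beside 28.9% and 29.0%. Gpnmb, encoding a lysosomal glycoprotein of macrophages, had 45.1%, 51.2% and 45.9% in WT and 42.7%, 51.5% and 45.1% in YBX1-/-. Lgals3, encoding galectin 3, had 40.1%, 44.3% and 40.8% in WT and 39.4%, 39.4% and 34.6% in YBX1-/-. Gpnmb thus had nearly the same range in both genotypes, and Lgals3 was lower in YBX1-/- by a narrow margin. Tyrobp and Fcer1g, which encode signalling adaptors of myeloid receptors, went the other way, with Tyrobp at 33.2%, 36.8% and 34.4% in WT and 21.8%, 22.1% and 19.8% in YBX1-/-.

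**Figure D4:**
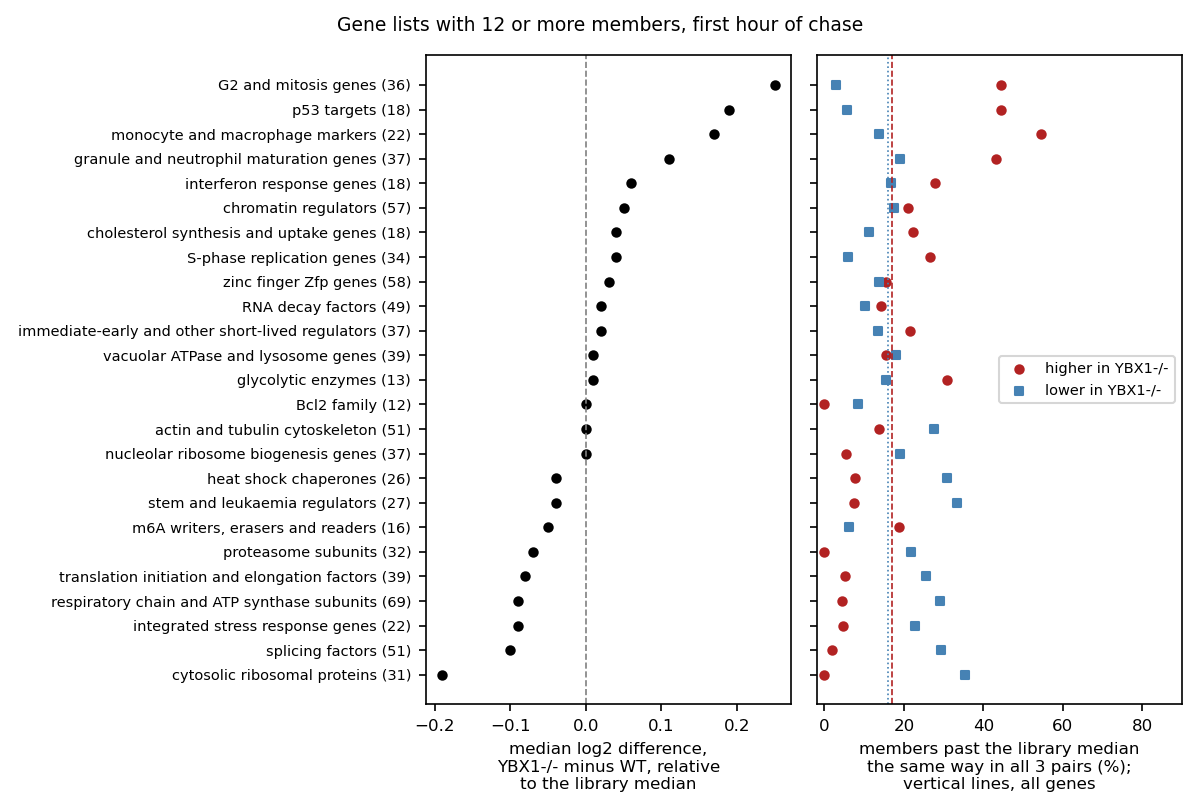
Gene lists with 12 or more measured members (number in brackets). Left, median log2 difference of YBX1-/- minus WT relative to the library median; right, percent of members relatively higher (red) or lower (blue) in all 3 pairs, with lines at 16.9% and 16% for all genes. G2 and mitosis genes, p53 targets, monocyte markers and granule genes lie at the top, at relative medians of 0.25, 0.19, 0.17 and 0.11, and ribosomal proteins at the bottom, at -0.19.

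Most genes of the translation machinery and the respiratory chain lay below WT without overlap. Of the 31 measured genes of cytosolic ribosomal proteins, 25 (80.6%) had all YBX1-/- rates below all WT rates, beside 47.9% of all genes. Entirely above were 0, near the 0.531% of all genes. Of 5 equal groups by CPM, the one that holds the median abundance of the list, 19.2 CPM, had 55.6% entirely below. The list had medians of 40.3%, 42.6% and 39.0% in WT and 27.1%, 28.4% and 25.9% in YBX1-/-, a median log2 difference of -0.64, or -0.19 relative to the library median. A total of 11 genes (35.5%) were relatively lower in all 3 pairs and 0 higher, beside 16% and 16.9% of all genes. Without the 0 h pair, 16 (51.6%) were lower and 2 (6.45%) higher, beside 29.0% and 28.9%. Rpl41, encoding the smallest ribosomal protein, had 43.8%, 44.7% and 46.5% in WT and 26.2%, 28.4% and 26.2% in YBX1-/-. Rps9, of the small subunit, had 43.5%, 43.6% and 39.9% in WT and 28.5%, 28.3% and 24.8% in YBX1-/-. Each was lower in every YBX1-/- library than in any WT library. Ribosomal protein genes have many pseudogene copies, so their reads could be shared between copies.

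The same held for translation factors, the respiratory chain and splicing factors. Of 39 translation factors, 32 (82.1%) had all YBX1-/- rates below all WT rates, of 69 respiratory chain and ATP synthase genes 56 (81.2%), and of 51 splicing factors 45 (88.2%), with 0 above in each list. These shares stand beside 47.9% below and 0.531% above over all genes. The lists had median abundances of 26.5, 27.6 and 27.8 CPM. Of 5 equal groups of genes by CPM, the one from 17.3 to 32.2 CPM had 55.6% entirely below, and the most abundant had 75.2%. Glycolytic enzymes, 13 of 20 measured, had 9 genes (69.2%) entirely below WT but a relative median of 0.01. Relatively higher in all 3 pairs were 4 (30.8%) and lower 2 (15.4%), beside 16.9% and 16% of all genes. Without the 0 h pair these were 4 (30.8%) and 3 (23.1%), beside 28.9% and 29.0%. Eif4a2, encoding a helicase of the initiation complex, had 47.1%, 57.5% and 49.9% in WT and 27.6%, 23.5% and 17.4% in YBX1-/-. Eef1a1, the elongation factor that brings tRNA to the ribosome, had 57.4%, 64.2% and 62.6% in WT and 41.8%, 43.3% and 39.8% in YBX1-/-. Hnrnpc, encoding a nuclear RNA-binding protein, had 52.6%, 62.1% and 57.8% in WT and 37.8%, 39.9% and 35.5% in YBX1-/-. Eif4a2 stood lowest of these, at 0.443 times its WT mean, where Eef1a1 stood at 0.678 and Hnrnpc at 0.656.

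Among all genes of at least 20 CPM with rates above 0 and a constant relative direction, the 12 lower genes of smallest p began with Atl3, Hpgd, Eif4a2 and Cast, and none passed the adjusted test. Atl3, encoding an endoplasmic reticulum GTPase, had 50.6%, 59.1% and 59.5% in WT and 24.0%, 31.0% and 27.5% in YBX1-/-. Hpgd, encoding the enzyme that inactivates prostaglandins, had 52.3%, 66.4% and 67.3% in WT and 26.6%, 38.7% and 26.2% in YBX1-/-. Cast, encoding the calpain inhibitor calpastatin, had 43.4%, 51.5% and 60.6% in WT and 26.2%, 26.3% and 30.3% in YBX1-/-. None of the 3 overlapped, and YBX1-/- means were 0.487, 0.492 and 0.532 times those of WT. Sulf2, encoding a heparan sulphate sulphatase, had the lowest ratio of the 12, 0.194, with 15.6%, 45.5% and 42.8% in WT and 1.03%, 7.59% and 11.5% in YBX1-/-. Penk, which encodes the precursor of enkephalin peptides, had 39.0%, 45.5% and 50.0% in WT and 21.3%, 24.1% and 21.6% in YBX1-/-. The other 6 were Tmem256, Oat, Thoc7, Slc25a5, Acp1 and Ugdh. In all 12 the YBX1-/- range lay under the WT range, beside 47.9% of all genes, but the 12 were chosen for low YBX1-/- rates.

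The 12 higher genes of smallest p under the same conditions were S100a9, S100a8, Bhlhe41, Ngp, Ifitm1, Cd93, Sun2, Chil3, Camp, Fam129b, Spint1 and Sorl1, and none passed either. Bhlhe41, encoding a basic helix-loop-helix repressor, had 48.8%, 55.3% and 32.2% in WT and 55.2%, 57.9% and 34.3% in YBX1-/-. Ifitm1, encoding an interferon-induced membrane protein, had 50.5%, 42.6% and 37.8% in WT and 52.2%, 50.6% and 43.4% in YBX1-/-. Cd93, a surface glycoprotein of early myeloid cells, had 54.5%, 48.6% and 43.9% in WT and 61.6%, 49.9% and 47.1% in YBX1-/-. These 3 genes were higher in YBX1-/- at each time although the ranges over times overlapped, with mean ratios of 1.08, 1.12 and 1.08. All 24 genes of both directions kept their sign with and without centring. For the 12 lower genes this was fixed in advance, since leaving out the centring only lowers the values. The higher genes came as near as 0.04 without centring, for Fam129b.

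For the deleted gene, Ybx1, and for the growth and survival genes Myc and Bcl2 the genotypes overlapped. Ybx1 had 55.2%, 61.4% and 56.8% in WT and 72.0%, 51.7% and 43.4% in YBX1-/- (relative log2 difference 0.36, SE 0.169, limma adjusted p = 0.653). A rate gives no level of the transcript, so the rates of Ybx1 do not check the deletion. Myc had 43.3%, 57.3% and 23.2% in WT and 48.0%, 35.5% and 19.0% in YBX1-/-. Bcl2 had 35.7%, 61.3% and 22.2% in WT and 26.1%, 42.4% and 19.5% in YBX1-/-. Ybx3 and Carhsp1, which also encode cold-shock domain proteins, each had all YBX1-/- rates below all WT rates, with mean ratios of 0.730 and 0.660.

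Of the 16 measured genes for writers, erasers and readers of m6A, the mRNA methylation mark, 10 (62.5%, beside 47.9% of all genes) had all YBX1-/- rates below all WT rates, with a relative median of -0.05. Wtap, encoding a writer subunit, had 53.3%, 56.6% and 50.4% in WT and 44.1%, 45.3% and 35.2% in YBX1-/-. Igf2bp3, encoding a reader, had 50.2%, 65.5% and 40.4% in WT and 29.4%, 32.8% and 33.1% in YBX1-/-. Both lay below WT at every time. Of 49 RNA decay factors 21 (42.9%) were entirely below, a share near the 47.9% of all genes. Tnrc6b, one of them, encoding a partner of Argonaute in silencing by miRNAs, went the other way, with 35.7%, 36.4% and 26.9% in WT and 53.8%, 44.6% and 32.4% in YBX1-/-. The Tnrc6b ranges overlapped through the 1 h value of YBX1-/-.

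Of the stem cell and leukaemia regulators (27 of 37 measured), 9 (33.3%, beside 16% of all genes) were relatively lower in all 3 pairs and 2 (7.41%, beside 16.9%) higher. When the 0 h pair was left out the lower count was again 9 (33.3%), now near the 29.0% of all genes. The higher count was then 4 (14.8%, beside 28.9%). Hoxa9, a homeobox gene of leukaemic self-renewal, had 43.0%, 61.2% and 41.9% in WT and 26.9%, 36.8% and 22.8% in YBX1-/-. Hoxa7, of the same homeobox cluster, had 35.2%, 41.3% and 30.9% in WT and 16.7%, 23.1% and 18.1% in YBX1-/-. Cebpa, encoding the C/EBP alpha factor of granulocyte commitment, went the other way, with 40.4%, 37.2% and 23.1% in WT and 45.5%, 43.5% and 35.2% in YBX1-/-. Hoxa9 and Hoxa7 did not overlap between genotypes, and Cebpa did.

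Rates of short-lived regulators were lower at 1 h than at 0.5 h in nearly every case, in both genotypes. Over all genes the rate was lower at 1 h than at 0.5 h for 4324 genes (71.7%) in WT and 5181 (86.0%) in YBX1-/-. The median log2 changes were -0.15 and -0.29. The 0.5 h library had the highest median in both genotypes. Against 0 h the rate at 1 h was lower for only 2777 genes (46.1%) in WT and 3958 (65.7%) in YBX1-/-. Among immediate-early and other short-lived regulators 35 of 37 (94.6%) were lower than at 0.5 h in WT and 37 of 37 (100%) in YBX1-/-. Their median changes were -0.35 and -0.53. Against 0 h, 34 (91.9%) were lower in WT and 35 (94.6%) in YBX1-/-. Klf2, encoding a zinc finger transcription factor, went from 36.8% and 35.9% to 13.5% in WT and from 40.0% and 19.3% to 15.2% in YBX1-/-. Egr1, an immediate-early transcription factor gene, went from 39.4% and 51.6% to 21.9% in WT and from 30.8% and 42.1% to 20.5% in YBX1-/-. In both genes and both genotypes the 1 h value was the lowest of the 3. Ribosomal protein genes had smaller median changes, -0.03 in WT and -0.15 in YBX1-/-. Of these, 19 of 31 (61.3%) were lower at 1 h than at 0.5 h in WT and 25 (80.6%) in YBX1-/-, the latter near the share of all genes. Against 0 h, 19 (61.3%) were lower in WT and 18 (58.1%) in YBX1-/-. With 1 library for each time and genotype these changes compare libraries, and whether the genotypes differed in them was not tested.

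**Figure D5:**
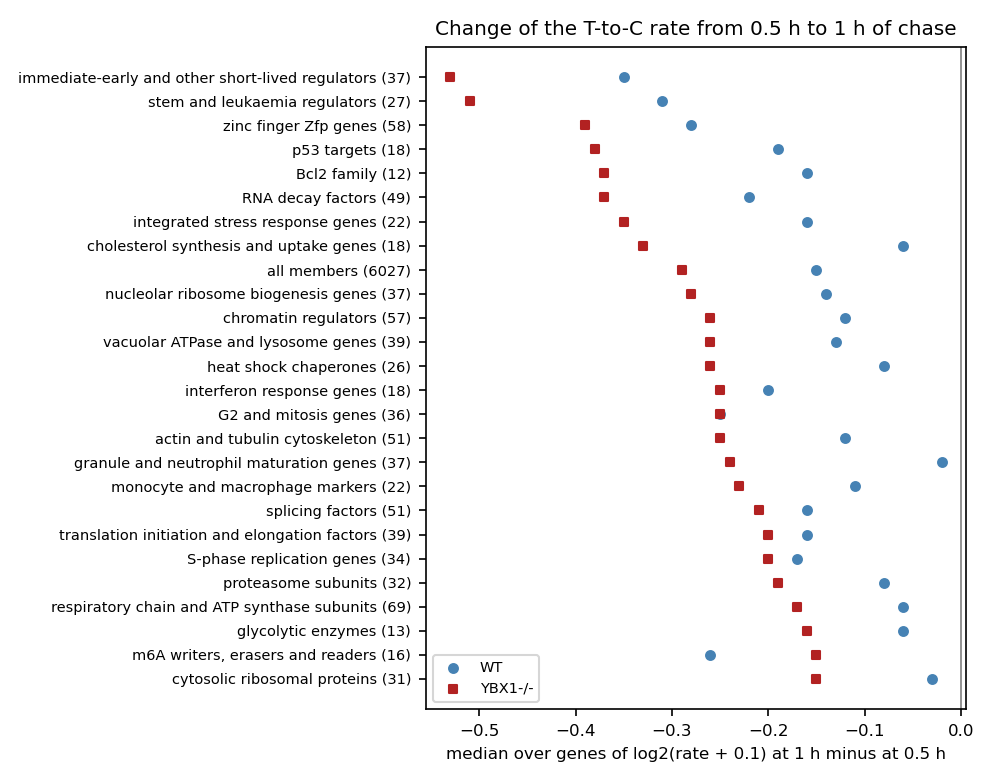
Median over the genes of each list of the log2 change in rate from 0.5 h to 1 h (horizontal axis), in WT (blue) and YBX1-/- (red), with the number of measured members in brackets. Immediate-early and stem cell lists lie at the left, at -0.53 and -0.51 in YBX1-/- and -0.35 and -0.31 in WT, and ribosomal proteins lie further right, at -0.15 and -0.03.

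The difference of the first hour was also compared with that of the next stretch, 3 and 6 h, in 1 limma fit over 10 libraries. Of 6027 genes, 0 (0%) passed, with a smallest adjusted p of 0.376 and 303 higher and 316 lower at an unadjusted p under 0.05. The median contrast over genes was -0.1, and it was -0.172 without the 3 h pair and 0.01 without the 6 h pair. With 1 later pair left, the later stretch holds 1 library for each genotype and no spread of its own. No count of passing genes is therefore given for those 2 settings. The library medians differed by -0.14 at 3 h and by -1.14 at 6 h on the log2 scale. Spint1, encoding a protease inhibitor, was the first of the named higher genes, with 46.1%, 46.0% and 43.7% in WT and 66.7%, 44.1% and 43.0% in YBX1-/- in the first hour. At 3 and 6 h it had 19.9% and 9.41% in WT and 9.68% and 2.53% in YBX1-/-, a contrast of 1.40 (SE 0.286, limma adjusted p = 0.397). Srsf1, encoding a splicing factor, led the lower genes, with 50.5%, 58.3% and 56.7% in WT and 35.0%, 41.8% and 32.6% in YBX1-/-, then 19.8% and 10.3% against 29.8% and 7.85%, a contrast of -0.90 (SE 0.212, adjusted p = 0.397).

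The T share of the interval went with the level of the rate, and the difference between genotypes was about the same at every T share. From the lowest to the highest of 5 equal groups by T share, the median rate at 0 h rose from 37.0% to 48.2% in WT and from 27.5% to 38.5% in YBX1-/-, while the median log2 difference stayed between -0.44 and -0.46 in all 5 groups. Abundance went with the spread of the differences. From the lowest to the highest of 5 equal groups by CPM the SD of the relative differences fell from 0.876 to 0.265, and the share of genes with all YBX1-/- rates below all WT rates rose from 28.4% to 75.2%. At the abundance limit, Slc25a15 at 5.005 CPM was just inside, with 47.1%, 55.1% and 47.9% in WT and 42.9%, 51.5% and 34.3% in YBX1-/-. Top3b at 4.997 CPM was just outside, with 38.6%, 33.3% and 37.8% in WT and 37.5%, 26.7% and 23.1% in YBX1-/-.

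The labelled cell type was checked against marker lists. Myeloid genes were abundant, led by Lyz2 (7376 CPM), while 2 of 15 erythroid, 2 of 12 megakaryocyte, 4 of 23 lymphocyte and 1 of 15 stromal or endothelial markers reached 5 CPM. Mast cell, basophil and eosinophil markers did so for 7 of 12, with summed means of 166 CPM, and 3 of the 7 (42.9%, beside 16.9% of all genes) were relatively higher in all 3 pairs. In the other direction Ms4a2, encoding a chain of the IgE receptor, was lower in all 3 pairs and entirely below WT (relative log2 difference -0.36), and Gata2 stood at -0.30 without a constant direction. Pf4 and Ppbp, the platelet chemokine genes, were relatively higher in all 3 pairs too, with Pf4 at 44.5%, 42.4% and 43.3% in WT and 45.0%, 44.7% and 37.4% in YBX1-/-. The part of such cells in the results above was not tested, since the deposited abundance is not split by library.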

How the data were processed

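T-to-C rates came from the merged table of the series, with 1 value for each interval and library. Per the file headers the rates are a fraction, converted here to percent; its denominator is not given in these sources, so it may be a share of reads or of T positions. The same deposited table gives avgReadsCPM (CPM, a mean over libraries), a coverage signal on T positions, and other columns with the number of T positions and the interval length. The submitters' processing notes name CASAVA, HISAT2 2.1.0 and GRCh38, although the samples are mouse and the deposited coordinates and T counts match GRCm38. No unlabelled library was used, so background conversion was not subtracted. Depth per library is unknown, because the deposited values hold no read counts by library, and no interval for counting error could be given.

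For each of 21177 genes the interval of highest avgReadsCPM was taken, and the 6027 genes of at least 5 CPM were kept. Log2(rate in percent + 0.1) was centred on the library median and tested with limma 3.58.1 (R 4.3.3, eBayes with trend, time point as a factor, Benjamini-Hochberg adjustment over all 6027 genes, threshold 0.05). Libraries are paired by time, not by a replicate number. The procedure was tested on simulated data: for the first hour it recovered 14 of 100 genes changed by 1 log2 unit and 36 of 100 changed by 2, and for the contrast with 3 to 6 h it recovered 0 of 100 at either size, so that a count of 0 passing genes does not show that genes did not differ. Named genes are Ybx1, Myc and Bcl2, the 12 genes in each direction for each comparison (at least 20 CPM, rates above 0, the same relative direction in the pairs, smallest p because none passed), and up to 6 for each of 31 gene lists (4 by smallest p and 2 by CPM); genes named for another reason, such as members of the granule list, were chosen after their values were seen. For the comparison with 3 to 6 h the same direction was read as all 3 early differences lying on 1 side of both later ones. The members and lists were chosen with earlier results of these data known. Counts of genes whose groups did not overlap, and their alternatives, were added after seeing the data.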

Additional observations from a re-analysis of the deposited data

How the results depend on the processing

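The median log2 difference of -0.44 stayed between -0.39 and -0.49 under every alternative run on that scale, with 1 pair left out included, and was at -0.44 (exact permutation p = 0.1) with no replicate block, that is, without pairing by time. The count of 0 genes differing in the first hour held under all 16 alternatives, also with no replicate block (0 genes). For the contrast with 3 to 6 h, no replicate block gave 2 genes, and leaving out 1 pair gave 0 to 593. Leaving out 1 pair gave 81 to 164 genes entirely higher in YBX1-/-, against 32, and 3626 to 4137 entirely lower, against 2885; in the granule list it gave 8 to 12 higher genes, against 7. A minimum of 1 CPM gave 72 entirely higher genes, and a minimum of 20 CPM gave 8 higher and 1397 lower, of 9628 and 2061 genes tested. Of 199 named genes, 50 had the other sign without centring, and 1 to 13 under the other alternatives that changed any sign. The cause was not tested, except that fewer pairs separate more easily and a higher minimum leaves fewer genes. With 1 library for each genotype and time and no read counts, a difference between genotypes and a difference between these libraries cannot be told apart.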

Other observations

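Of 39 vacuolar ATPase and lysosome genes, 23 (59.0%) had all YBX1-/- rates below all WT rates, of 51 actin and tubulin genes 38 (74.5%), of 32 proteasome genes 23 (71.9%) and of 26 heat shock chaperones 17 (65.4%), beside 47.9% of all genes. Their median abundances were 67.6, 57.1, 23.9 and 22.8 CPM. Of 5 equal groups by CPM, the most abundant (from 32.2 CPM) had a share of 75.2%. The next group (from 17.3 CPM) had 55.6%. The relative medians of the lists were 0.01, 0.00, -0.07 and -0.04. Of the heat shock chaperones 8 (30.8%) were relatively lower in all 3 pairs and 2 (7.69%) higher, and of the proteasome genes 7 (21.9%) and 0, beside 16% and 16.9% of all genes. Without the 0 h pair the chaperone counts were 15 (57.7%) lower and 3 (11.5%) higher. The proteasome counts were then 12 (37.5%) and 3 (9.38%). Over all genes the shares were 29.0% and 28.9% in that setting. Among 18 interferon response genes the relative median was 0.06, and 5 (27.8%) were relatively higher and 3 (16.7%) lower in all 3 pairs, the latter near the 16% of all genes. Without the 0 h pair the higher share was 38.9%, beside 28.9%. Among 34 S-phase replication genes 9 (26.5%) were relatively higher and 2 (5.88%) lower, beside 16.9% and 16% of all genes, with a relative median of 0.04 that was -0.41 without centring. The 12 measured Bcl2 family genes had a relative median of 0.00, with 6 entirely below WT, among them Bid at 38.6%, 63.6% and 42.9% in WT and 31.9%, 31.9% and 24.8% in YBX1-/-.

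The 4 measured lymphocyte markers went in different directions. Nkg7, a gene of cytotoxic lymphocytes, had 26.1%, 33.3% and 11.1% in WT and 29.7%, 45.7% and 27.2% in YBX1-/-, and 8.33% and 23.8% at 6 h. Its relative log2 difference was 1.09, where those of Il7r, Cd79b and Igkc were 0.15, -0.18 and -0.85, and Igkc, an immunoglobulin light chain gene, lay entirely below WT. Vcam1, encoding an adhesion molecule, had 46.0%, 64.2% and 65.2% in WT and 28.6%, 22.8% and 25.8% in YBX1-/-, a mean ratio of 0.440.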
